A study of Mus musculus with 10 samples.

Results

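FoxO3 siRNA on top of FoxO1 siRNA was examined by comparing 2 RNA-seq libraries of mouse renal proximal tubule cells that differ in the label for siRNA. Library 10 is labelled with siRNA to FoxO1 and FoxO3, and library 8 with siRNA to FoxO1 alone. The comparison, written 10/8, asks what FoxO3 siRNA adds to FoxO1 siRNA under H2O2 and Wnt3a. Its members are the 11939 genes, of 46509 rows, whose FPKM reached 1 in either library and was exactly 0 in neither. FPKM is a fragment count divided by transcript length and library size. The filter left out 34454 rows below it and 116 rows listed at 0 in 1 of the 2 libraries. Fmo5 was just inside the filter, at 1.00 FPKM in library 10 and 0.878 FPKM in library 8, and Gm27011 was just outside it, at 0.999 FPKM in library 10 and 0.168 FPKM in library 8.

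The study sequenced total RNA of conditionally immortalized cells, 1 library for each group. Libraries 10, 8, 9 and 7 all received 100 uM H2O2, an oxidant, and 20 ng/mL Wnt3a, a ligand that stabilises beta-catenin, so none of them shows the cells without these agents. The labels give siRNA to FoxO1 and FoxO3 for library 10, siRNA to FoxO1 for library 8, siRNA to FoxO3 for library 9 and scramble siRNA for library 7. The cells of every group came from mice of mixed strain, N2 FVB with a TbRII floxed allele, crossed to the Immorto-mouse, whose immortalizing gene is switched on by interferon gamma and stable only at low temperature. Transfection took place at 33 °C, after which the cells were held at 37 °C and interferon gamma was withdrawn. The labels give no age and no number of animals, and they do not give the state of the floxed allele. Since each group is a single library, replicate spread is unknown for every value, and libraries were compared without a test.

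FoxO1 and FoxO3 are forkhead transcription factors that AKT, downstream of insulin and growth factors, holds in the cytosol. Oxidative stress can send them into the nucleus, where they drive genes of antioxidant defence, cell cycle arrest, autophagy and metabolism, and they can also bind beta-catenin. In the proximal tubule, which reabsorbs most of the filtrate and is rich in mitochondria, H2O2 serves as a model of oxidant injury.

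Ratios are log2((library 10 + 1)/(library 8 + 1)) of FPKM, which understates the difference of weakly expressed genes. The median over all measured genes was -0.01, and the robust spread, a standard deviation estimated from the median absolute deviation, was 0.150. This is a spread over genes within 1 pair of libraries and gives no measure of how replicate libraries would vary. It narrowed with level, and was 0.316 in the 1246 genes with a mean FPKM under 2, 0.214 between 2 and 5, 0.139 between 10 and 30, and 0.0911 above 100. The weakest of these genes held 11.2% with a ratio past 0.58 in either direction, against 0.754% of the strongest. Total fragment counts are not given, but weakly expressed genes placed the depth of library 10 at 1.035 times that of library 8. Summed FPKM was 510607 in library 10 and 508824 in library 8. Of 32 proximal tubule markers in the tables, 9 had 1 FPKM or more and 11 were at 0 in both libraries. The factor Pax8 stood at 103 FPKM in library 10 and 104 FPKM in library 8, and the endocytic receptor Lrp2 at 12.2 FPKM in library 10 and 12.5 FPKM in library 8, while the brush border peptidase Anpep stood below 0.1 FPKM in both. The summed level of the proximal tubule markers was 414 FPKM in library 10, 403 FPKM in library 8, 428 FPKM in library 9 and 397 FPKM in library 7. Of the markers of fibroblasts, endothelial cells, leukocytes, podocytes and distal nephron, 1 of 11, 1 of 9, 3 of 11, 2 of 6 and 2 of 13 reached 1 FPKM. Some of these stood above Lrp2. Cdh16 of the distal nephron list had 55.1 FPKM in library 10 and 58.4 FPKM in library 8. The leukocyte marker Cd14 had 25.9 FPKM in library 10 and 23.5 FPKM in library 8, and the podocyte marker Synpo 24.4 and 21.6 FPKM. In libraries of bulk cells, fewer cells with a transcript and less of it per cell cannot be told apart.

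The targeted genes were taken first. Foxo1 (mm10 chromosome 3, 52268336 to 52353221) had 4.67 FPKM in library 10, 3.68 FPKM in library 8, 8.55 FPKM in library 9 and 7.95 FPKM in library 7. Both libraries with FoxO1 siRNA were below the other two, and Foxo1 in library 10 was 127% of its level in library 8, a ratio of 0.28. Foxo3 (mm10 chromosome 10, 42181841 to 42276755) had 17.4 FPKM in library 10, 17.8 FPKM in library 8, 19.9 FPKM in library 9 and 19.7 FPKM in library 7. Foxo3 mRNA in library 10 was thus 97.7% of its level in library 8, a ratio of -0.03, and in library 9 it was 101% of its level in library 7. The mRNA did not bear out the FoxO3 siRNA label in either library. Each direction below is therefore only that of a library labelled with FoxO3 siRNA. Protein was not analysed here. The relatives Foxo4, with 4.35 FPKM in library 10 and 4.74 FPKM in library 8, and Foxo6, with 0.377 FPKM in library 10 and 0.324 FPKM in library 8, had ratios of -0.10 and 0.06.

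**Figure D1:**
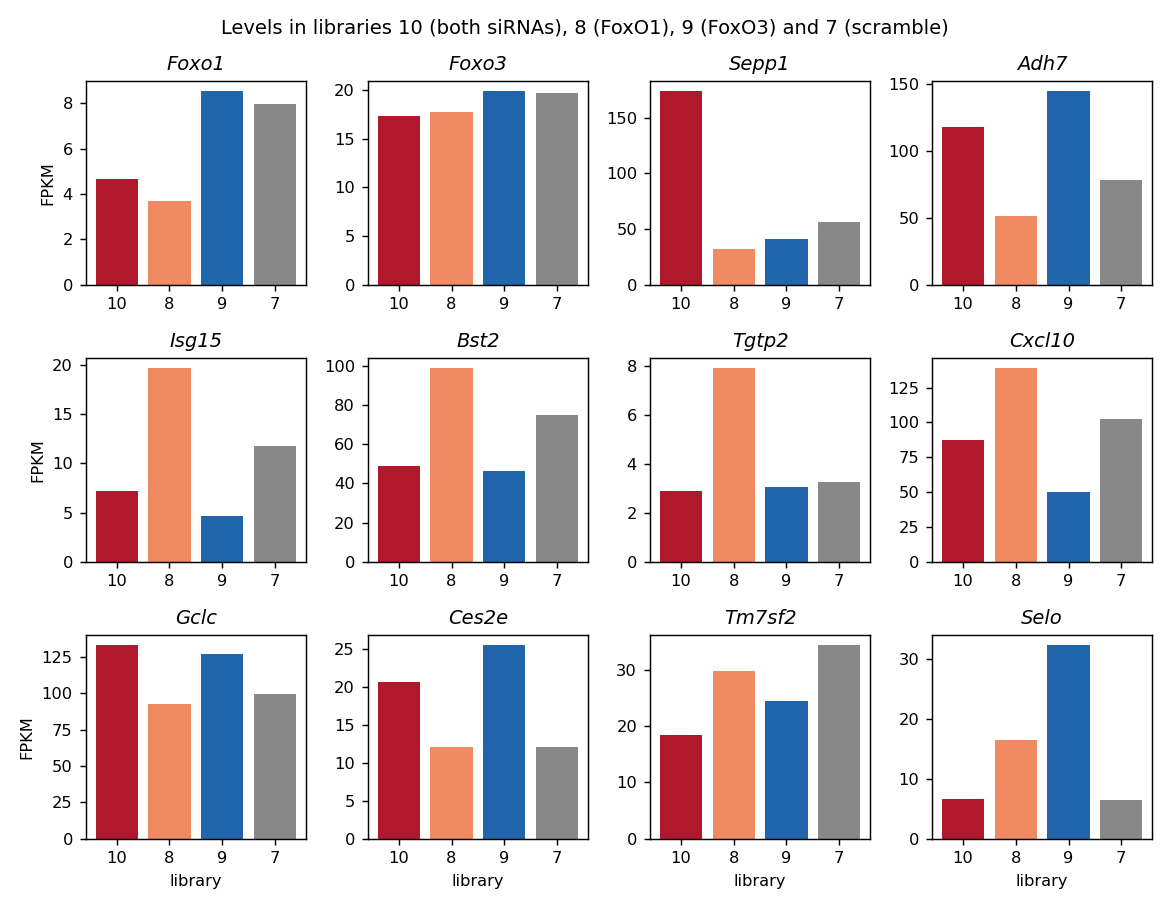
FPKM (linear axis from 0) of 12 genes in libraries 10 (both siRNAs), 8 (FoxO1 siRNA), 9 (FoxO3 siRNA) and 7 (scramble siRNA), 1 bar per library with no error. Foxo3 was at 17.4 to 19.9 FPKM in the 4 libraries, Sepp1 was highest in library 10 at 174 FPKM, and Isg15, Bst2, Tgtp2 and Cxcl10 were highest in library 8.

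Few genes differed between libraries 10 and 8. By 2-fold or more on this scale, 19 genes (0.159% of those measured) were higher in library 10 and 33 (0.276%) were lower. At the smaller size used for gene lists, a ratio of 0.58 or about 1.49-fold, 133 genes (1.11%) were higher and 172 (1.44%) were lower, and 97.4% of measured genes lay between these limits. Much of what passed was weak or unnamed. Of the 19 higher genes 5 were protein coding and of the 33 lower genes 16, against 91.6% of all measured genes, and their median levels were 2.25 and 3.10 FPKM against 15.2 FPKM for all. Among rows with a single, plain gene symbol, the authors' status OK in both tables and a value above 0 in all 4 libraries, called ranked rows here, 6 were higher by 2-fold and 18 lower. Of these, 3 higher and 10 lower genes reached 5 FPKM in at least 1 library. The 3 were Sepp1, the transcript RP23-8L20.6 and Adh7. The 10 were Isg15, Apol9a, Oasl2, Tgtp2, Selo, Rtp4, Xaf1, Ccl5, Hspb1 and Bst2, of which all but Selo and Hspb1 are known as genes that interferon induces.

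**Figure D2:**
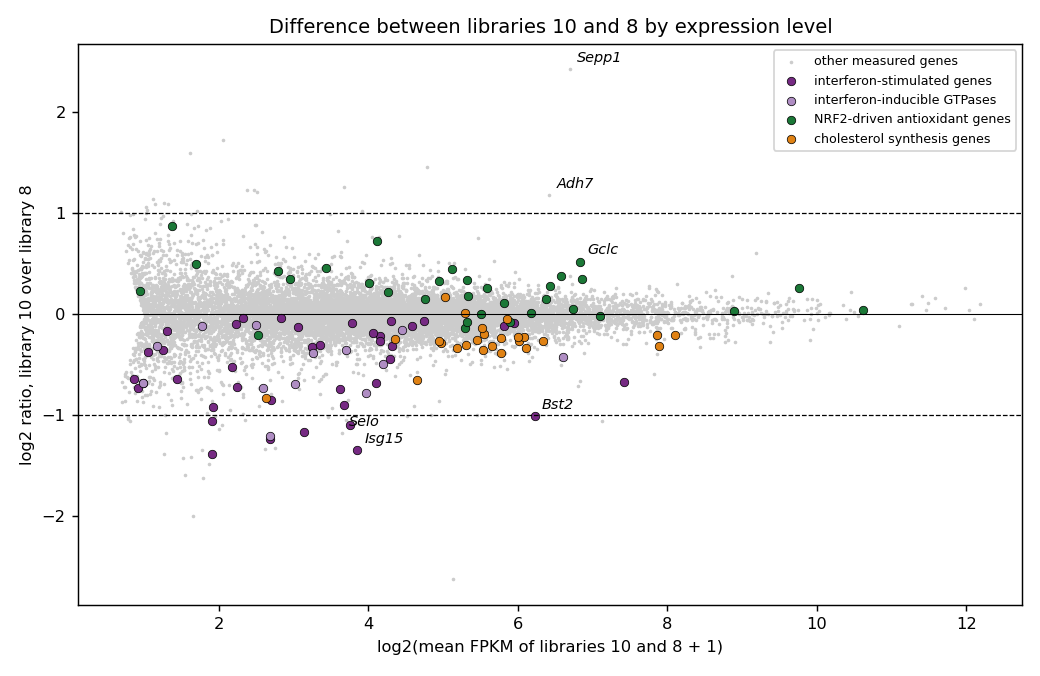
Log2 ratio of library 10 over library 8 (vertical axis) against log2 of the mean FPKM of both plus 1 (horizontal axis), 1 point per measured gene, with dashed lines at a ratio of 1 and -1 and colours for 4 gene lists. The interferon-stimulated genes (39 measured) all lie below 0, and Sepp1 lies highest at 2.42.

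Genes of the interferon response were lower in library 10 than in library 8. Interferons act through receptors and transcription factors such as IRF9 on genes that block viral entry, translation and replication. All 39 measured interferon-stimulated genes had a ratio below 0, 18 of them past -0.58 and none past 0.58, with a median of -0.44. Over all measured genes 6188 of 11939 had a ratio below 0, 1.44% were past -0.58, and the median was -0.01. The list, like the others here, was chosen with earlier results of these data known, and members induced by 1 pathway are not independent of each other.

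The largest ratios among the interferon-stimulated genes belonged to antiviral effectors. Isg15, a ubiquitin-like modifier (mm10 chromosome 4, 156199424 to 156200818), had 7.15 FPKM in library 10, 19.7 FPKM in library 8, 4.63 FPKM in library 9 and 11.8 FPKM in library 7, a 10/8 ratio of -1.35. Its level was highest in library 8 and lowest in library 9, with library 7 between libraries 10 and 8. Bst2, the tetherin that holds budding virions on the cell surface, had 48.8 FPKM in library 10, 99.1 FPKM in library 8, 46.1 FPKM in library 9 and 75.1 FPKM in library 7, a ratio of -1.01. The same order was seen for Rtp4 (4.44 FPKM in library 10, 11.2 in library 8, 2.23 in library 9 and 5.82 in library 7, ratio -1.17). Xaf1, a partner of the apoptosis inhibitor XIAP, had 7.55 FPKM in library 10, 17.3 FPKM in library 8, 3.34 FPKM in library 9 and 8.54 FPKM in library 7, a ratio of -1.10. The order of the 4 libraries was the same for all 4 of these genes. Ifi44 had 1.08 FPKM in library 10 and 4.43 FPKM in library 8, and Rsad2, the antiviral enzyme viperin, 1.43 FPKM in library 10 and 4.05 FPKM in library 8, with ratios of -1.38 and -1.05. Ifi27 was the most abundant member past the limit, at 131 FPKM in library 10 and 209 FPKM in library 8, a ratio of -0.67.

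The oligoadenylate synthetase family, which senses double-stranded RNA, also stood lower in library 10. Oasl2 had 2.81 FPKM in library 10, 7.99 FPKM in library 8, 1.01 FPKM in library 9 and 3.47 FPKM in library 7, a ratio of -1.24. Oas1a had a ratio of -0.92, Oas3 of -0.73 and Oasl1 of -0.64, while Oas1g and Oas1b had -0.37 and -0.17, inside the limit. Reads of these related genes can be split between copies by the authors' counting, so the values of single copies are less certain than the family's direction.

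Among the factors of the pathway, Irf9 and Irf7 differed more than Stat2 and Irf1. Irf9, the DNA-binding part of the interferon complex, had 7.95 FPKM in library 10, 15.7 FPKM in library 8, 5.93 FPKM in library 9 and 10.0 FPKM in library 7, a ratio of -0.90. Irf7, which amplifies interferon production, had 2.55 FPKM in library 10 and 4.87 FPKM in library 8, a ratio of -0.72, and Usp18, which removes ISG15 and dampens the receptor, a ratio of -0.85. Stat2, the partner of Irf9 in that complex, had 5.99 FPKM in library 10 and 6.20 FPKM in library 8, a ratio of -0.04, and Irf1 a ratio of -0.07. The RNA sensors Ddx58 and Dhx58 had ratios of -0.33 and -0.35, and the sensor Ifih1 of -0.10. The RNA-binding kinase Eif2ak2 and the RNA-editing enzyme Adar had ratios of -0.32 and -0.44. Ifit1 had a ratio of -0.74, but its neighbours Ifit2, at 53.02 FPKM in library 10 and 57.6 FPKM in library 8, and Ifit3, at 25.2 FPKM in library 10 and 26.5 FPKM in library 8, had -0.12 and -0.07.

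The interferon-inducible GTPases, which attack the vacuoles of intracellular microbes, had the same direction. All 13 measured members were below 0, 5 past -0.58 and none past 0.58, with a median of -0.43. Of all measured genes 1.44% were past -0.58. Tgtp2 had 2.88 FPKM in library 10, 7.92 FPKM in library 8, 3.03 FPKM in library 9 and 3.25 FPKM in library 7, a ratio of -1.20. Library 8 alone stood apart in the values listed for Tgtp2. Its near-identical copy Tgtp1 had 10.5 FPKM in library 10, 18.8 FPKM in library 8, 6.22 FPKM in library 9 and 11.8 FPKM in library 7, a ratio of -0.78. Reads may be split between these copies, so the order of the libraries for either copy alone is uncertain. Irgm2 and Iigp1 had ratios of -0.73 and -0.69, and Mx2, which stands in both interferon lists, -0.68. Irgm1, the most abundant at 81.7 FPKM in library 10 and 110 FPKM in library 8, had -0.43, and the guanylate-binding protein genes Gbp4 and Gbp7 -0.11 and -0.12.

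Antigen presentation and secreted factors are given against the 1.44% of all measured genes past -0.58. Of 24 genes of MHC class I presentation 1 passed -0.58, the nonclassical H2-T23 with 1.84 FPKM in library 10 and 3.39 FPKM in library 8, and the list's median was -0.06. H2-K1 and B2m had ratios of -0.05 each, while the peptide-loading factor Tapbp had -0.42 and the immunoproteasome subunit Psmb8 -0.32. Of 23 cytokine and chemokine genes 3 passed -0.58 and none passed 0.58, with a median of -0.07. Ccl5, which draws T cells and monocytes, had 7.49 FPKM in library 10, 16.6 FPKM in library 8, 3.75 FPKM in library 9 and 11.6 FPKM in library 7, a ratio of -1.05. Cxcl10, the interferon-induced ligand of CXCR3, had 87.6 FPKM in library 10, 139 FPKM in library 8, 49.7 FPKM in library 9 and 103 FPKM in library 7, a ratio of -0.66. Ccl20, the ligand of CCR6, had 83.4 FPKM in library 10, 137 FPKM in library 8, 141 FPKM in library 9 and 97.7 FPKM in library 7, a ratio of -0.71, and so was high in libraries 8 and 9. The neutrophil chemokines Cxcl1 and Cxcl5 had ratios of 0.16 and 0.12.

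Each library's own ratio to library 7 was set beside the 10/8 ratio, although these comparisons share libraries. For the interferon-stimulated genes the median was -0.12 in 10/7, with 28 of 39 members below 0 and 2 past -0.58. It was 0.34 in 8/7, with 36 of 39 members above 0 and 9 past 0.58. Over all 11939 measured genes, 75 were past -0.58 in 10/7 and 135 past 0.58 in 8/7, with medians of -0.01 and -0.004. Library 8 held the highest level of the 4 libraries for 34 of the 39 interferon-stimulated genes, and library 9 the lowest for 33. How often a library was highest or lowest was not counted over all measured genes. For the GTPases the median was -0.14 in 10/7 and 0.40 in 8/7, and library 8 was highest for 12 of 13. The 10/8 difference of these genes was thus made of a higher level in library 8 than in library 7 and, to a smaller extent, of a lower level in library 10 than in library 7. In the 12 genes of the RNA interference machinery, none passed 0.58 either way and the median was -0.03. That count was near the share of all measured genes, of which 97.4% lay inside these limits.

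**Figure D3:**
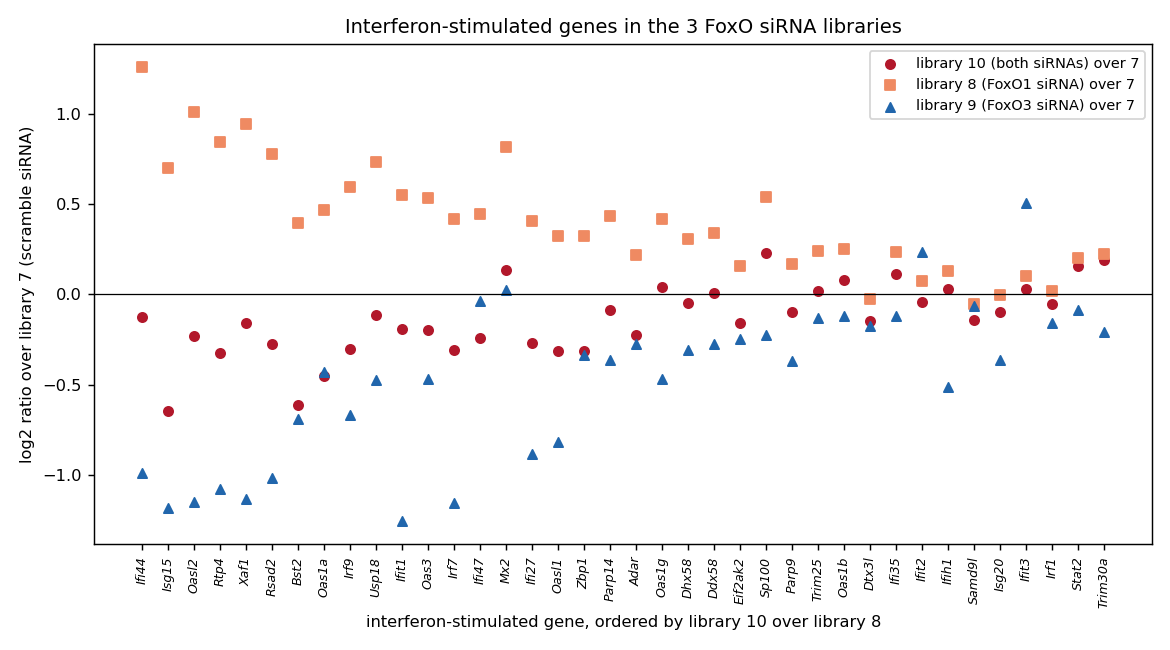
Log2 ratio over library 7 (scramble siRNA) of 38 of the 39 interferon-stimulated genes in library 10 (both siRNAs, circles), library 8 (FoxO1 siRNA, squares) and library 9 (FoxO3 siRNA, triangles), ordered by the 10/8 ratio; the 3 ratios share library 7. Of these 38, library 8 lies above 0 for 35 and library 10 below 0 for 27.

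Promoters of interferon genes near the lower end of the comparison were read from RefSeq (GRCm38.p6, 250 bases before to 50 after the transcript start, gene strand, 5′ to 3′), because the interferon response element GAAANNGAAA, the site of IRF family factors, is known to drive such genes. Of 11939 measured genes 9142 matched a promoter. The element, sought on both strands and with overlapping matches allowed, was in 3.44% of all 32851 windows of this length. It was in 13 of the 29 interferon-stimulated genes that matched (44.8%) and in all 8 of the GTPases that did, against 3.55% of measured genes.  It was in 16 of 71 ranked genes lower by 0.58 or more and in 1 of 47 ranked genes higher by that much. In the Isg15 window (chr4:156200769-156201068, minus strand) 3 overlapping matches, in capitals below, began 78, 72 and 66 bases before the start. In the Bst2 window (chr8:71537423-71537722, minus strand) 2 matches began 130 and 124 bases before it. In the Apol9a window (chr15:77411031-77411330, minus strand) 2 matches lay on the other strand, 59 and 53 bases before the start. In the Tgtp2 window (chr11:49064163-49064462, minus strand) 1 match began 70 bases before it. The windows of Oasl2, Xaf1 and Ifi44, also among the lowest ratios, held no match, and those shown were chosen because they held one. A match is a description of letters and not a bound site.
Isg15: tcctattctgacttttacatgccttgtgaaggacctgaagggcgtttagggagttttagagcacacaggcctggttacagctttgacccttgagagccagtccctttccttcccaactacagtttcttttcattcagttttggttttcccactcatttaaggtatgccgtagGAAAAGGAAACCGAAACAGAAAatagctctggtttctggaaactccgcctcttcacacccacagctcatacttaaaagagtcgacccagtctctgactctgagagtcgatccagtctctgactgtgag
Bst2: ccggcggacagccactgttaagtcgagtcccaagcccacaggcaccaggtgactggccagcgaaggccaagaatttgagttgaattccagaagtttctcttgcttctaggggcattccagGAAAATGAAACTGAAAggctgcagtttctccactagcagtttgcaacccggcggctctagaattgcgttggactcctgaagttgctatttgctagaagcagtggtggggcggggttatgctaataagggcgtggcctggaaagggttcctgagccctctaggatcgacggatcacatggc
Apol9a: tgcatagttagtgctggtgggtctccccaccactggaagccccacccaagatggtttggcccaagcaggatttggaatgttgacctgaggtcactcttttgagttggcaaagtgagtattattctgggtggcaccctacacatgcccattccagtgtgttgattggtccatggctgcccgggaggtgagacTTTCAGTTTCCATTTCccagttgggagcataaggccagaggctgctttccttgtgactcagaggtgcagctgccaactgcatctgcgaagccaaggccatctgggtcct
Tgtp2: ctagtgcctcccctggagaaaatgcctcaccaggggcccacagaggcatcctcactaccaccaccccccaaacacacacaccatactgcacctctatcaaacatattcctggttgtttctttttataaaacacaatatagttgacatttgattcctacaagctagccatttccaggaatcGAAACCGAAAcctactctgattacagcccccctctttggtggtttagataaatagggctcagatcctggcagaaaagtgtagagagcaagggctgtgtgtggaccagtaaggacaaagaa

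Apolipoprotein L genes stood beside the interferon genes. Apol9a, an interferon-induced member of that family, had 2.48 FPKM in library 10, 7.73 FPKM in library 8, 0.431 FPKM in library 9 and 2.79 FPKM in library 7, a ratio of -1.33. Its close copy Apol9b, named after its values were seen, had 0.689 FPKM in library 10, 4.19 FPKM in library 8, 0.210 FPKM in library 9 and 1.89 FPKM in library 7, a ratio of -1.62. Library 8 was the highest and library 9 the lowest for both copies, between which reads may be split.

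Genes of the NRF2 antioxidant programme were mostly higher in library 10. NRF2 is the factor that electrophiles and oxidants release from KEAP1, and it drives glutathione synthesis, NADPH supply and detoxifying enzymes. Of 32 measured genes 26 had a ratio above 0, 2 passed 0.58 and none passed -0.58, with a median of 0.24. Over all measured genes 5751 of 11939 were above 0, 1.11% passed 0.58, 1.44% passed -0.58, and the median was -0.01. The list's own medians against library 7 were 0.15 in 10/7 and -0.04 in 8/7. Library 10 held the highest level of the 4 libraries for 12 of the 32 genes. This was not counted over all measured genes, and library 10 was also highest for 25 of 54 ribosomal protein genes. The count of 12 thus does not set the NRF2 list apart.

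Glutathione synthesis was represented by Gclc, the catalytic subunit of the rate-limiting ligase, with 133 FPKM in library 10, 92.8 FPKM in library 8, 127 FPKM in library 9 and 99.2 FPKM in library 7, a 10/8 ratio of 0.52. Its regulatory subunit Gclm had 106.99 FPKM in library 10, 82.1 FPKM in library 8, 107.29 FPKM in library 9 and 93.2 FPKM in library 7, a ratio of 0.38. Both libraries labelled with FoxO3 siRNA were above the other two for both subunits by less than the 0.58 limit. Glutathione reductase Gsr had a ratio of 0.28, and the cystine carrier Slc7a11, with 4.35 FPKM in library 10 and 5.16 FPKM in library 8, had -0.20. Of the detoxifying enzymes, the carboxylesterase Ces2e had 20.7 FPKM in library 10, 12.1 FPKM in library 8, 25.6 FPKM in library 9 and 12.1 FPKM in library 7, a ratio of 0.72. Gsta3, a glutathione transferase, had 2.34 FPKM in library 10 and 0.827 FPKM in library 8, a ratio of 0.87 at a weak level. The quinone reductase Nqo1 had 11.5 FPKM in library 10, 8.08 FPKM in library 8, 13.8 FPKM in library 9 and 8.34 FPKM in library 7, a ratio of 0.46. Gstm1 and sulfiredoxin Srxn1 had ratios of 0.35 and 0.44. The iron-storage genes Fth1 and Ftl1 had ratios of 0.26 and 0.04, and the haem oxygenase Hmox1 of 0.10. Aldh1a1 and its close copy Aldh1a7, retinal and aldehyde dehydrogenases, had ratios of 0.33 and 0.32 in 10/8, and 1.68 and 1.55 in 9/7.

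The antioxidant response element, searched as TGACNNNGC on both strands, was in 12.4% of all promoter windows and in 10 of the 27 NRF2 genes that matched a promoter (37.0%), against 17.1% of measured genes. Gsta3 had the largest ratio of that list and is shown for this reason (RefSeq GRCm38.p6, chr1:21240335-21240634, plus strand). Its window held 1 match, in capitals, 121 bases before the start.
Gsta3: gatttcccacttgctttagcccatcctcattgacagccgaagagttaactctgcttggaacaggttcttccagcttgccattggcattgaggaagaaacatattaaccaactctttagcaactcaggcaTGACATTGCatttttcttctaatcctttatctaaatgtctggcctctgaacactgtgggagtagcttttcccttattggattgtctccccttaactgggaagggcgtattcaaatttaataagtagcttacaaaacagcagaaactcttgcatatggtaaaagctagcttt

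Genes of cholesterol synthesis were lower in library 10 by small amounts. They are driven together by the factor SREBF2, which is released when membrane sterol is low. Of 25 measured genes 23 had a ratio below 0, 2 passed -0.58 and none passed 0.58, with a median of -0.27. Over all measured genes 51.8% were below 0 and 1.44% were past -0.58. The median was -0.22 in 10/7 and 0.03 in 8/7, so library 10 and not library 8 was the one away from library 7. Tm7sf2, a sterol reductase, had 18.5 FPKM in library 10, 29.7 FPKM in library 8, 24.4 FPKM in library 9 and 34.4 FPKM in library 7, a ratio of -0.66. The prenyl synthase Fdps had 211 FPKM in library 10 and 262 FPKM in library 8, a ratio of -0.31, and Srebf2 itself had a ratio of -0.22. The abundant members Hmgcs1 and Msmo1, each above 200 FPKM, had ratios of -0.21 each. The exceptions above 0 were Lss at 0.01 and Ebp at 0.17. Among genes of fatty acid metabolism none of 25 passed 0.58 either way, with the desaturase Scd1 at -0.52 and the acyl-CoA dehydrogenase Acadm at 0.51.

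**Figure D4:**
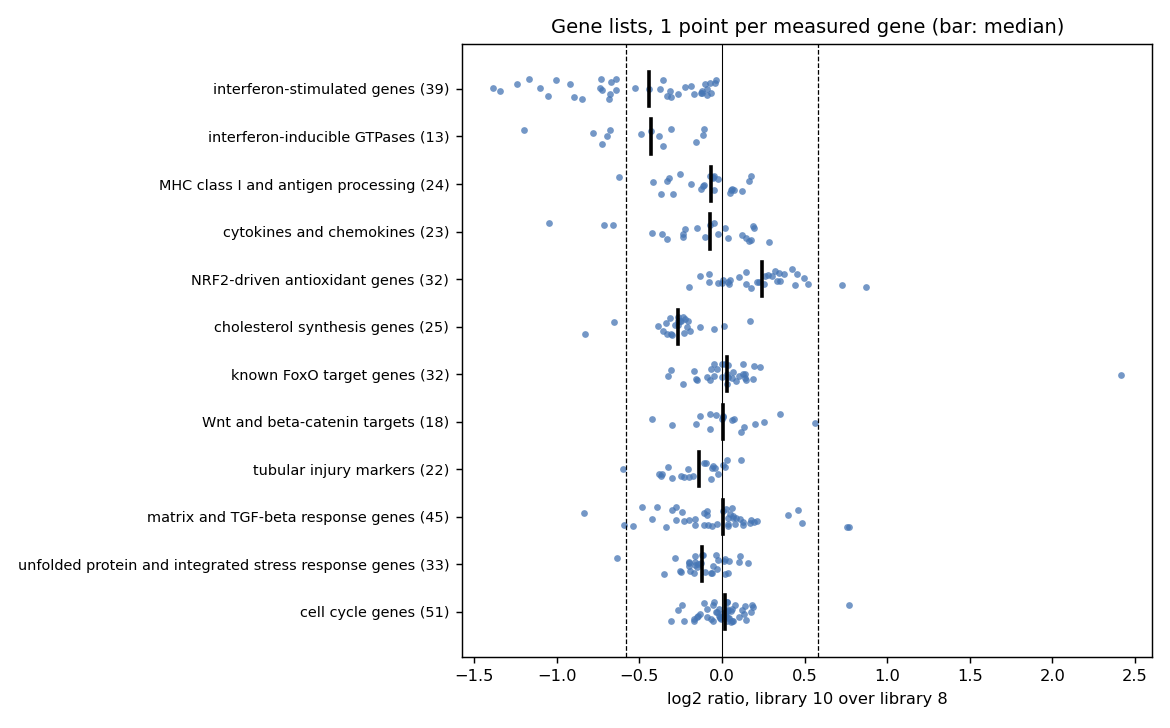
Log2 ratio of library 10 over library 8 (horizontal axis) for the measured members of 12 gene lists, 1 point per gene with random vertical offset, the number of genes in brackets and a black bar at the median; dashed lines mark 0.58 either way. The medians of the 2 interferon lists lie at -0.44 and -0.43, that of the NRF2 list at 0.24 and that of cholesterol synthesis at -0.27.

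Of 32 measured known FoxO target genes 31 lay inside 0.58 either way, 20 above 0 and 12 below, with a median of 0.03. Over all measured genes 97.4% lay inside these limits, so this count was near that of genes at large. The cell cycle inhibitor Cdkn1b had 44.8 FPKM in library 10 and 42.8 FPKM in library 8, a ratio of 0.06. The antioxidant enzymes Sod2 and Cat, textbook FoxO3 targets, had ratios of 0.03 and 0.13. The pro-apoptotic genes Bcl2l11 and Bbc3 had -0.15 and 0.10, the insulin signalling gene Irs2 had 0.04, and the redox gene Txnip had 29.8 FPKM in both libraries. The largest negative ratios were those of Cited2 at -0.32 and Ccng2 at -0.31. Of 24 genes of the insulin, PI3K and AKT pathway, which acts on the FoxO factors, none passed 0.58 either way.

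The FoxO target past the limit was Sepp1 (Selenop in current nomenclature, mm10 chromosome 15, 3268547 to 3280508), the plasma selenoprotein that carries selenium to other organs and is known in liver cells as a FoxO1 target. It had 174 FPKM in library 10, 31.8 FPKM in library 8, 40.6 FPKM in library 9 and 55.8 FPKM in library 7. Sepp1 was highest in library 10 by far, 5.47 times its level in library 8, a ratio of 2.42, the largest of all measured genes. Its ratio was 1.62 in 10/7, -0.79 in 8/7 and -0.45 in 9/7, so both libraries with a single siRNA were below library 7 and the library with both was above it. 15.4% of its exonic bases are shared with Ccdc152 on the opposite strand, a gene listed at 0 in all 4 libraries. Whether the counting used strand is not stated in the labels, so reads of the pair cannot be told apart. The forkhead motif GTAAACA, on either strand, was in 3.65% of all promoter windows. Counted by gene, it was in 6 of the 30 FoxO targets that matched a promoter (20.0%), against 2.96% of measured genes. RefSeq gives 3 windows for Sepp1, of which the one shown (GRCm38.p6, chr15:3270727-3271026, plus strand) held 1 match, in capitals, 24 bases before the start. The others held no forkhead match. They overlap each other, and the 1 interferon response element found in each is the same stretch of bases.
Sepp1: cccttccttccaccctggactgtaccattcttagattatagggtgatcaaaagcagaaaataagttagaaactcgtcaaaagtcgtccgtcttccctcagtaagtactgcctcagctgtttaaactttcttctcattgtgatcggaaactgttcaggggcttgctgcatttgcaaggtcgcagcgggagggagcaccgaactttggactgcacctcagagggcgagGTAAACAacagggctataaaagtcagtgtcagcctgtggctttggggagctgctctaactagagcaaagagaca

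Other selenoprotein genes did not follow Sepp1. Of 15 measured, 13 lay inside 0.58 either way, against 97.4% of all measured genes, and the median was 0.02. The glutathione peroxidases Gpx1, Gpx4 and Gpx3 had ratios of 0.00, 0.02 and 0.17. Selo, a mitochondrial pseudokinase that attaches AMP to proteins, had 6.68 FPKM in library 10, 16.4 FPKM in library 8, 32.3 FPKM in library 9 and 6.39 FPKM in library 7, a ratio of -1.18 in 10/8 and 2.17 in 9/7. Libraries 10 and 7 were alike for Selo, and both libraries with a single siRNA were above them. 26.7% of its exonic bases are shared with Tubgcp6 on the opposite strand, which had 7.79 FPKM in library 10, 8.63 FPKM in library 8, 8.06 FPKM in library 9 and 9.36 FPKM in library 7.

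Among the other genes higher in library 10, Adh7, an alcohol and retinol dehydrogenase of epithelia, had 118 FPKM in library 10, 51.6 FPKM in library 8, 145 FPKM in library 9 and 78.2 FPKM in library 7, a ratio of 1.18. Both libraries labelled with FoxO3 siRNA were above the other two. The same pattern was seen for Xdh, the xanthine dehydrogenase that makes uric acid, with 14.4 FPKM in library 10, 7.76 FPKM in library 8, 17.5 FPKM in library 9 and 10.0 FPKM in library 7, a ratio of 0.82. Postn, the matrix protein periostin, had 54.6 FPKM in library 10, 32.0 FPKM in library 8, 53.4 FPKM in library 9 and 29.1 FPKM in library 7, a ratio of 0.75. Cpz, a carboxypeptidase with a Wnt-binding domain, had 5.28 FPKM in library 10, 2.68 FPKM in library 8, 7.07 FPKM in library 9 and 2.64 FPKM in library 7, a ratio of 0.77. For these 4 genes libraries 10 and 9 were high and libraries 8 and 7 low.

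The cell cycle factor E2f3 differed in another way. It had 25.8 FPKM in library 10, 14.7 FPKM in library 8, 23.2 FPKM in library 9 and 23.9 FPKM in library 7, a ratio of 0.77, and library 8 alone stood apart. S100a3, a calcium-binding protein gene, was likewise lowest in library 8, with 8.21 FPKM in library 10, 4.44 FPKM in library 8, 9.14 FPKM in library 9 and 7.48 FPKM in library 7, a ratio of 0.76. Svop, a synaptic vesicle transporter relative, and B3galt1, a galactosyltransferase, had ratios of 0.99 and 0.88. The unannotated transcript RP23-8L20.6 had 5.35 FPKM in library 10 and 0.931 FPKM in library 8, a ratio of 1.72. 86.7% of its exonic bases lie opposite Ccnd2, which had 34.1 FPKM in library 10 and 33.4 FPKM in library 8.

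Among the lower genes outside the interferon response, Hspb1, a small heat shock protein that protects actin, had 6.29 FPKM in library 10, 13.7 FPKM in library 8, 7.20 FPKM in library 9 and 10.5 FPKM in library 7, a ratio of -1.02. It was the exception among 14 chaperone genes, of which 13 lay inside 0.58 either way, against 97.4% of all measured genes. The long noncoding RNA Hotairm1 of the HOXA cluster had 2.34 FPKM in library 10, 5.65 FPKM in library 8, 6.76 FPKM in library 9 and 6.30 FPKM in library 7, a ratio of -0.99, and library 10 alone was low. Ppm1j, a protein phosphatase, had a ratio of -0.91. Of 45 matrix and TGF-beta response genes, Cpz and Postn passed 0.58, and Mmp9 and Ctgf passed -0.58, with a median of 0.00. Of all measured genes 1.11% passed 0.58 and 1.44% passed -0.58. The gelatinase Mmp9 had 3.45 FPKM in library 10, 6.96 FPKM in library 8, 2.59 FPKM in library 9 and 5.40 FPKM in library 7, a ratio of -0.84. Ctgf, the matricellular connective tissue growth factor, had 179 FPKM in library 10, 271 FPKM in library 8, 115 FPKM in library 9 and 225 FPKM in library 7, a ratio of -0.60. Both were lowest in library 9. Gm28037 had the lowest ratio of all measured genes, -2.62, with 8.77 FPKM in library 10 and 59.1 FPKM in library 8, and is named after its values were seen. It overlaps Rpl24 on the same strand, sharing 47.0% of the exonic bases of Rpl24, which had 696 FPKM in library 10 and 602 FPKM in library 8, so the authors' counting could move reads between them.

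Few tubular injury and stress genes passed the limit. Of 22 injury markers 18 had a ratio below 0 and 1 passed -0.58, with a median of -0.14, against 51.8% below 0 and 1.44% past -0.58 over all measured genes. The 1 past the limit, a count near that share, was Havcr1, the kidney injury molecule, with 11.1 FPKM in library 10, 17.4 FPKM in library 8, 8.19 FPKM in library 9 and 11.7 FPKM in library 7, a ratio of -0.60. Library 8 was the high one, and libraries 10 and 7 were close. Of 33 genes of the unfolded protein and integrated stress responses 25 were below 0 and 1 passed -0.58, the weakly expressed hormone gene Fgf21 with 0.342 FPKM in library 10 and 1.09 FPKM in library 8, and the median was -0.12. In 9/7 the same list had 13 of 32 genes past -0.58 and a median of -0.25. Of the genes measured in both 10/8 and 9/7, 1.7% were past -0.58 in 9/7.

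Most other programmes did not differ past the limit. None of the measured members passed 0.58 either way among 18 targets of Wnt and beta-catenin, 42 autophagy and lysosome genes, 28 p53 targets, 17 pro-apoptotic and 11 anti-apoptotic genes, 23 immediate early genes, 18 clock genes, 28 genes of glycolysis and hypoxia, 75 nuclear genes of the respiratory chain, 54 ribosomal protein genes, 23 other antioxidant genes and 14 retinoid genes. Their medians lay between -0.09 and 0.06. Of all measured genes 97.4% lay inside 0.58 either way. Among the Wnt targets Id2 came closest, with 12.6 FPKM in library 10 and 8.21 FPKM in library 8, a ratio of 0.56, and Wisp1 had -0.42. Of 51 cell cycle genes E2f3 alone passed, and of 8 complement genes Cd55, a brake on complement, alone, with 2.25 FPKM in library 10, 1.17 FPKM in library 8, 5.12 FPKM in library 9 and 0.945 FPKM in library 7, a ratio of 0.58. With 1 library per group, small differences in these programmes were not detectable.

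Library 9 is labelled with FoxO3 siRNA without FoxO1 siRNA, although its Foxo3 mRNA was 101% of that in library 7. Its ratio to library 7, 9/7, shares no library with 10/8. Of 11689 genes measured in both ratios, 169 (1.45%) were higher by 0.58 or more in 9/7 and 199 (1.7%) were lower. Past 0.58 in both ratios, 23 genes were higher in both and 41 lower in both, while 14 were higher in 10/8 and lower in 9/7 and 12 the reverse. Across the 11689 genes, which are not independent replicates, Pearson's r was 0.199 and Spearman's rho 0.189. In the 10676 ranked rows 9 genes were higher in both, 29 lower in both and 8 opposite. Of the 87 ranked genes lower in 10/8, 33.3% were lower in 9/7 too, against 1.39% of all ranked rows, and the 29 were 19.6% of those lower in 9/7. Of the 53 ranked genes higher in 10/8, 17.0% were higher in 9/7, against 0.918% of all ranked rows, and the 9 were 9.18% of those higher in 9/7. Of the same 53 genes, 6 (11.3%) were lower in 9/7, against 1.39% of all ranked rows, so this group exceeded the share of all rows in both directions. Of the 87 ranked genes lower in 10/8, 2 (2.30%) were higher in 9/7, against 0.918% of all ranked rows.

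Of the 29 genes lower in both ratios 14 stood in the interferon and MHC class I lists. The genes ranked highest by the smaller of their ratios, among those at 5 FPKM or more, were led by interferon-induced genes. Isg15, Apol9a, Oasl2, Rtp4, Xaf1 and Ccl5 had 9/7 ratios of -1.18, -1.40, -1.15, -1.08, -1.13 and -1.40. The interferon-stimulated genes had a median of -0.36 in 9/7, with 12 of 35 past -0.58 and 33 of 35 below 0, and the GTPases a median of -0.43 with 3 of 12 past -0.58. Over all genes measured in both ratios, 1.7% were past -0.58 in 9/7. Not all interferon genes shared the size. Tgtp2, Mx2 and Ifi47, past -0.58 in 10/8, had 9/7 ratios of -0.07, 0.03 and -0.03, and Ifit3, near 0 in 10/8, had 0.50 in 9/7. Reads may be split between Tgtp2 and its copy Tgtp1, which had -0.83 in 9/7. Outside the lists of interferon-stimulated genes, GTPases and MHC class I genes, 15 of 67 ranked genes lower in 10/8 (22.4%) were lower in 9/7, against 1.25% of all such rows. These 15 still held Apol9a, Ccl5 and Cxcl10, which interferon induces, and the copy Apol9b. The lists thus do not cover the whole interferon response, and the 22.4% is not a share free of it. Also among the 15, named after their values were seen, were Ctgf, Mmp9, Cd74 and Wnt7a. The invariant chain gene Cd74 had 6.53 FPKM in library 10, 10.6 FPKM in library 8, 3.18 FPKM in library 9 and 7.79 FPKM in library 7. The Wnt ligand gene Wnt7a had 10.6 FPKM in library 10, 16.5 FPKM in library 8, 8.55 FPKM in library 9 and 14.4 FPKM in library 7.

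The 9 ranked genes higher in both ratios were Adh7, Xdh, Cpz, Postn, Ces2e, Bach2, Alcam, Cyfip2 and Cd55, with 9/7 ratios between 0.59 and 1.65. The NRF2 list had a median of 0.17 in 9/7, with 4 of 32 past 0.58 and 1 past -0.58, and cholesterol synthesis a median of -0.16 with none of 25 past -0.58. Over all genes measured in both ratios the 9/7 median was -0.02, with 1.45% past 0.58 and 1.7% past -0.58. Among opposite genes at 5 FPKM or more Selo had the largest ratios. Smaller opposite pairs, were those of Sp3os (0.68 in 10/8 and -0.58 in 9/7), Ccl20 (-0.71 and 0.53), Elmod1 (-0.59 and 0.50) and Ly6a (-0.63 and 0.48). No test of a difference between 10/8 and 9/7 was possible with 1 library in each group.

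**Figure D5:**
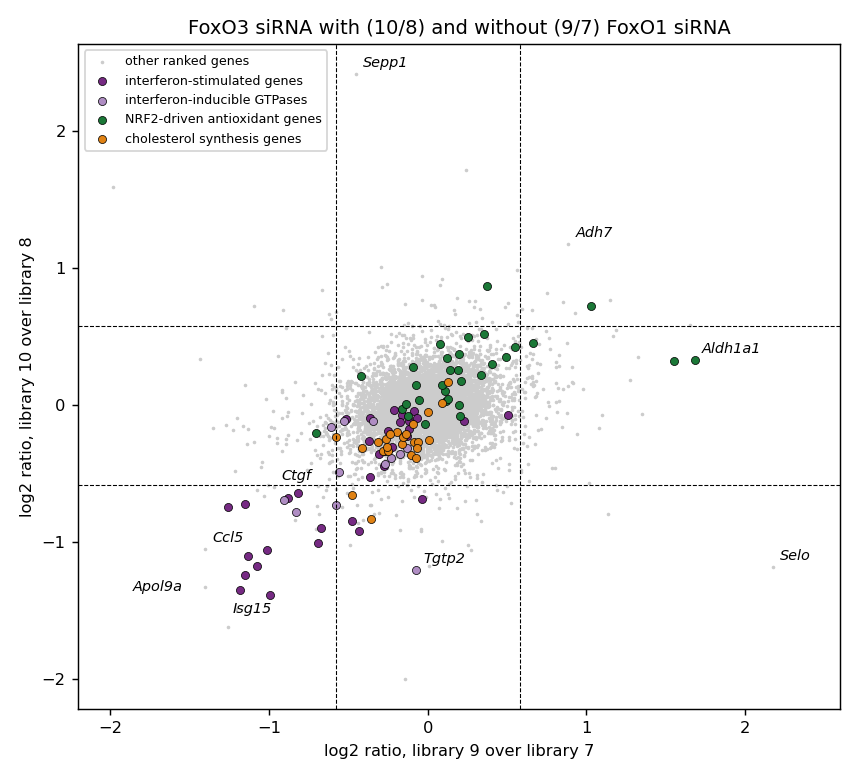
Log2 ratio of library 10 over library 8 (vertical axis) against that of library 9 over library 7 (horizontal axis), 1 point per ranked gene (10676), with dashed lines at 0.58 either way. Of the genes past both lines 29 lie at lower left, 9 at upper right and 8 in the opposite corners, with Selo far at lower right; colours mark 4 gene lists.

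Library 7, labelled with scramble siRNA, was used to place the differences, although its own ratios to libraries 10 and 8 share libraries with 10/8. Of the 18 ranked genes lower by 2-fold, library 7 lay between libraries 10 and 8 for 15, and was nearer to library 10 for 11 and to library 8 for 7. Their medians were -0.55 in 10/7 and 0.75 in 8/7, and -1.002 in 9/7. Picking genes by a large 10/8 ratio by itself favours a library 7 between libraries 10 and 8. It likewise favours opposite signs in 10/7 and 8/7. Of the 6 ranked genes higher by 2-fold, library 7 was nearer to library 10 for 4. At 0.58, library 7 was nearer to library 10 for 62 of 97 lower genes (63.9%) and for 25 of 62 higher genes (40.3%). At that limit, for most genes lower in library 10 the library farther from library 7 was library 8, and for most genes higher in library 10 it was library 10 itself.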

How the data were processed

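Total RNA was sequenced on an Illumina instrument with reads of 100 bases. The deposited tables hold FPKM for each gene of 2 libraries, made by the authors with TopHat2, Cufflinks and Cuffdiff on mouse build mm10, per the submitters' processing notes. Neither the settings nor the annotation, nor whether strand was used, was given in the sources used here. P-values in the tables were not used.

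Libraries 10 and 8 stand in different tables, each beside library 7, and were joined by gene ID. Library 8 was multiplied by 1.00334 and library 9 by 1.00116, the median ratio of the library 7 columns, which differed by over 1% in 0 of 11723 genes after this. Ratios are log2 of FPKM with a pseudocount of 1. A value of exactly 0 may be a failed estimate, since Gapdh is listed at 0 in library 7, so such rows were left out. The 1.035-fold relative depth rests on 2758 genes under 0.3 FPKM, of which 46.2% lay within 0.03 (log2) of a whole-number ratio up to 4, against 15.0% of the axis.

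Named genes were the FoxO genes, the 12 highest and 12 lowest ratios among ranked rows of 5 FPKM or more, up to 4 per list, and the 6 with the largest smaller ratio of the same and of opposite sign in 10/8 and 9/7. Ranked rows leave out predicted, small RNA, histone and mitochondrial genes. Other genes were named for their known role, after their values were seen. Members and lists were chosen with earlier results of these data known. Promoters matched by symbol, GENCODE name or synonym; overlaps are from GENCODE on mm10. Python 3.11.15, pandas 2.3.3, numpy 2.4.6 and matplotlib 3.10.9 were used, and the scripts were tested on simulated data. Alternatives changed the pseudocount, filter, scaling and rows at 0. Some genes that the naming rule gave are not reported here.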

Additional observations from a re-analysis of the deposited data

Results flagged for a closer look

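Selo, the mitochondrial pseudokinase gene, had a ratio of -1.18 in library 10 over library 8 and of 2.17 in library 9 over library 7, so the libraries labelled with FoxO3 siRNA stood on opposite sides of their partners. With 1 library in each group this difference between the ratios was not tested. Its exons overlap those of Tubgcp6 on the opposite strand, whose ratios were -0.13 in 10/8 and -0.19 in 9/7.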

How the results depend on the processing

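The 19 higher and 33 lower genes past 2-fold became 94 and 112 with a pseudocount of 0.1 FPKM, 3 and 3 with one of 5, 9 and 16 when 5 FPKM was required, 77 and 91 with rows at 0 kept, and 6 and 18 in ranked rows. Of the gene lists, the interferon-stimulated median of -0.44 was -0.66 at 0.1 and -0.23 at 5, where 8 and not 18 genes passed -0.58. At 5 the GTPase median was -0.27 with 2 and not 5 genes past -0.58, 1 and not 2 NRF2 genes passed 0.58, and 0 and not 2 cholesterol genes passed -0.58. The 64 genes past 0.58 the same way in 10/8 and 9/7 became 129 at 0.1, 19 at 5, 31 when 5 FPKM was required and 38 in ranked rows. The 26 opposite genes became 63, 3, 2 and 8 under the same settings in that order. Outside the 3 interferon lists, an alternative chosen after seeing the data, ranked rows held 24 the same way and 8 opposite. The 24 still held interferon-induced genes that the lists leave out, such as Ccl5 and Cxcl10. Library 7 was nearer library 10 for 66.7% of ranked genes higher by 2-fold, but for 40.3% of those higher by 0.58, also chosen after seeing the data. A larger pseudocount shrinks ratios of weak genes by construction, and the cause of the other shifts was not tested. Leaving the tables unscaled, centring the ratio or differencing the ratios within each table moved none of the 10/8 counts past 2-fold or the list counts and medians beyond the limits used. For 10/8 with 9/7 only centring was run, which gave 68 the same way and 26 opposite, and none of the 3 was run for the position of library 7. No paired analysis was possible because each group has 1 library, and for the same reason no library could be left out. Depth limits the weak genes most.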
